A study of Homo sapiens with 16 samples.

Results

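Histone genes of the HIST1, HIST2, HIST3 and HIST4 gene clusters, most of them replication-dependent, were examined in MDA-MB-231 cells, a human breast adenocarcinoma line. Members are the rows of the expression table whose gene symbol starts with HIST1H, HIST2H, HIST3H or HIST4H and whose FPKM (reads scaled by gene length and sequencing depth) was at least 1 in at least 4 of the 16 libraries. This rule kept 41 of 71 histone rows, out of 19468 genes in all: 2 genes of linker histone H1, 10 of H2A, 13 of H2B, 8 of H3 and 8 of H4. In nucleosomes, DNA is wrapped around a pair each of the core histones H2A, H2B, H3 and H4, while H1 binds the linker DNA between nucleosomes. Cells make most of this histone mRNA in S phase, when newly copied DNA must be packaged. The mRNAs of these genes usually end in a conserved stem-loop bound by the protein SLBP instead of a poly(A) tail, so that libraries made by depletion of ribosomal RNA from total RNA, as here, can hold them whereas poly(A) selection loses most of them.

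The 16 libraries fall into 4 groups of 4. Ancestral cells were sequenced on either soft or stiff ECM, and cells selected on 1 of these were sequenced on the same one (soft-selected or stiff-selected), with a genotype given as WT in all groups. ECM (extracellular matrix) here is a polyacrylamide gel conjugated with type I collagen, of 1 kPa (soft) or 308 kPa (stiff) according to the protocol, although the column names of the stiff libraries carry another stiffness. Selected cells had been passaged for 75 days on the gel named. The selected cells are populations and not clones, and nothing in the sources tells whether the 4 libraries of a group came from separate cultures, so that p-values cover the spread among these libraries alone, which may be technical. The descriptions of ancestral libraries start with one code and those of selected libraries with another, so that whatever the codes stand for cannot be told apart from selection. Reads recovered from the FPKM values numbered 43475904 to 55473023 per library in ancestral cells on soft ECM, 45800344 to 55301354 in those on stiff ECM, 34284794 to 44279020 in soft-selected and 36304717 to 44216343 in stiff-selected cells, and 0.659% to 0.835% of them fell on the members. All 8 genes listed as markers present in MDA-MB-231 cells, among them VIM and CD44, had an FPKM of at least 1 in every library. Of 8 genes listed as absent or low in this line, 5, including ESR1 and PGR, stayed under 1 in every library. The other 3, EPCAM (7.04 to 14.1), GATA3 (5.08 to 15.4) and ERBB3 (1.32 to 2.56), were above 1 in every library. Of 16 markers of other cell types, 12 stayed under 1, and CD68, also a lysosomal gene, held most of the rest. The summed FPKM of these 16 ranged from 96.8 to 111 in ancestral and 125 to 157 in soft-selected libraries on soft ECM, and from 64.9 to 89.5 in ancestral and 97.5 to 112 in stiff-selected libraries on stiff ECM, and their part in the results was not tested.

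The stem-loop is shown first because it is the feature that sets this mRNA class apart from other mRNA. In transcripts of GENCODE version 44, matched by gene identifier and name for all 71 rows, the stretch after the stop codon was searched for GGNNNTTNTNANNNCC in which the first 6 bases pair with the last 6, allowing G with T. All 41 members and all 30 other rows held such a stem-loop, against 162 of 19676 protein-coding genes (0.823%, these rows included) with one anywhere in a transcript. It started 22 to 62 bases after the stop codon of members (median 35). The members' 7 forms are given as DNA with the loop of 4 bases in capitals.
most members (24 genes, all families but H4): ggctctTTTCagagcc
most H4 genes (6): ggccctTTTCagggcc
HIST1H2BK, HIST1H2BC, HIST1H2BD, HIST1H2BJ, HIST2H2AB and HIST3H3 (6): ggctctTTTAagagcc
HIST1H4K and HIST1H4I (2): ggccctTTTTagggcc
HIST2H2AC (1): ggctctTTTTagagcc
HIST1H2AG (1): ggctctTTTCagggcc
HIST1H2AK (1): ggttctTTTCagagcc
The 8 H4 members carried stems that begin ggccct, which no member of another family did. HIST1H2AG carried the same 3′ arm as the H4 genes, and HIST1H2AK had a 5′ arm of its own.

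Members and rows below the filter lay in blocks. In the gene order of the RefSeq annotation of GRCh38.p14, used for order only because the authors' files are on hg19, 15 neighbouring rows from HIST1H4D to HIST1H2BI all lay below the filter, with no other gene of the table between them. They include genes of all 5 families, their highest FPKM in any library was 0.287, 3 of them were listed at 0 in every library, and together they held 63 reads over the 16 libraries. The rows on either side were HIST1H2BE (mean FPKM 134) and HIST1H4H (mean FPKM 472). A shorter block of 4 rows from HIST1H2AL to HIST1H4L, which includes the linker histone gene HIST1H1B, held 6 reads in all libraries together between HIST1H2BN (325) and HIST1H3J (191). In the HIST2 cluster, the 6 neighbouring rows from HIST2H4A to HIST2H3A were listed at 0 in all 16 libraries between HIST2H3D (146) and HIST2H2BE (995). HIST3H2A and HIST3H2BB held 16 reads together. The 3 remaining rows below the filter stood alone among members: HIST1H1A, HIST1H1T and HIST1H2AA. A row listed at 0 may be a failed estimate and was not read as absence of the mRNA.

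**Figure D1:**
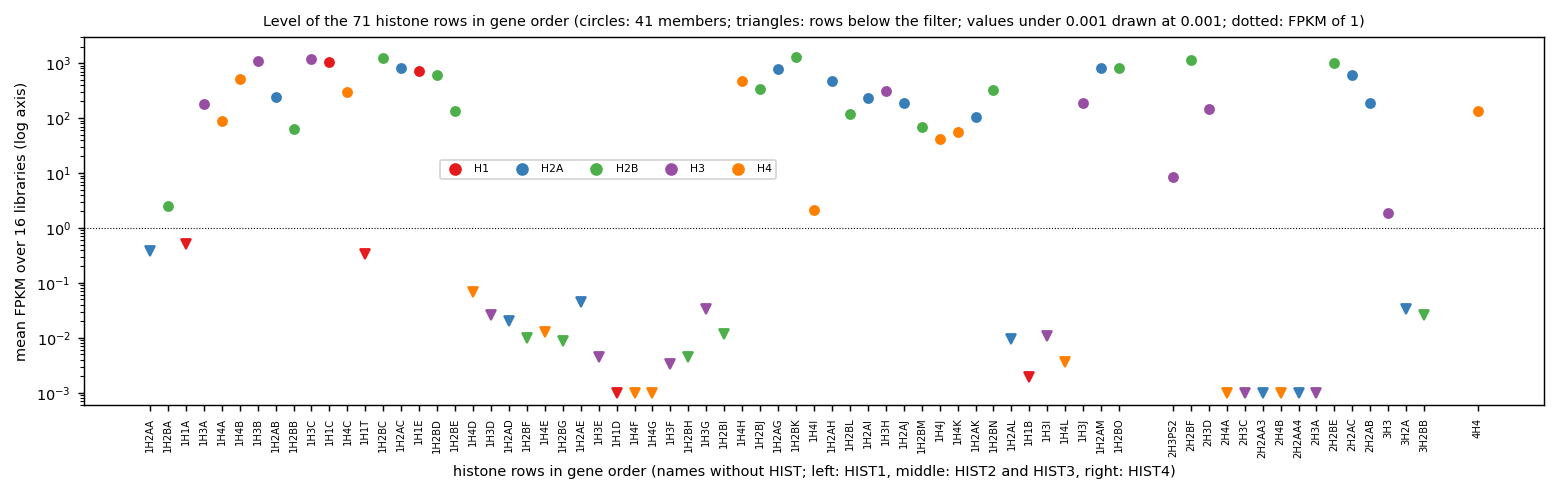
Mean FPKM over the 16 libraries (y axis, log scale) of the 71 histone rows in gene order (x axis), coloured by family, with circles for the 41 members and triangles for the 30 rows below the filter. The run of 15 triangles from HIST1H4D to HIST1H2BI and the 6 triangles at the floor in HIST2 lie between members with means of 134 to 995.

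Close copies were compared by their coding sequences alone. Reads themselves were not examined, and sequences outside the histone rows were not searched. In coding sequences cut into windows of 150 bases, the read length given in the methods, 35 of 41 members shared no window with another histone row. HIST1H4J and HIST1H4K shared every window, since their coding sequences were identical, so that their separate values are uncertain. HIST1H2AI and HIST1H2AJ shared 75.0% and 76.9% of their windows with each other, HIST2H3D shared 12.6%, and HIST2H3PS2, which differed from HIST2H3D at 5 of 411 bases, shared 5.73%. Among the rows below the filter, 6 shared every window with a copy, and these were the 6 HIST2 rows listed at 0. The other 24 shared none, those of the 15-row block included. Within a family, members of equal coding length were 79.1% to 92.6% identical in H2A, 85.6% to 94.0% in H2B, 81.0% to 98.8% in H3 and 80.4% to 100% in H4. The gene length recovered with the reads equalled the coding length in 40 of 41 members (381 bases in most of the H2B genes and 312 bases in H4), so FPKM was counted over coding sequence. Whether counting used strand is not given in the sources used here.

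Promoters are shown for some of the members called between groups (tests below), as the 250 bases before the RefSeq start on GRCh38.p14, 5′ to 3′ on the gene's strand. Those of the other called members, HIST1H1E, HIST4H4, HIST1H4I, HIST2H2BF and HIST3H3, are not shown. Capitals mark, on either strand, the octamer ATTTGCAT, a CCAAT box, a TATA box spelled TATAAA and the H1 box, spelled AAACACA. The 4 motifs do not hold each other, and a match is a description of the letters.
HIST1H2BM (chr6:27814772-27815021, plus strand): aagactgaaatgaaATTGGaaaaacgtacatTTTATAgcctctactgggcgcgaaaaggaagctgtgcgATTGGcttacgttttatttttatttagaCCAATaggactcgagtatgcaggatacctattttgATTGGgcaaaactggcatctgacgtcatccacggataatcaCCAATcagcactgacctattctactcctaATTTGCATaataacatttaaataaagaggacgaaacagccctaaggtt
HIST1H2AM (chr6:27893186-27893435, minus strand): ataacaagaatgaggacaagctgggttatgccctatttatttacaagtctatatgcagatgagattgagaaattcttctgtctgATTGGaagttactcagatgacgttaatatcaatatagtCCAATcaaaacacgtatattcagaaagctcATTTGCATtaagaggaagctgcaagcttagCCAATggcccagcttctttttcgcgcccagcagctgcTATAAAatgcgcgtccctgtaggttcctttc
HIST1H1C (chr6:26056471-26056720, minus strand): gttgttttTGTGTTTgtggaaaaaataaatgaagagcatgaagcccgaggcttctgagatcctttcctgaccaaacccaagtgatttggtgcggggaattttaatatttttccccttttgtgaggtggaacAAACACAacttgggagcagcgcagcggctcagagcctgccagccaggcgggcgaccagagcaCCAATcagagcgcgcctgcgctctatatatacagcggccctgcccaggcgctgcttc
HIST1H4B (chr6:26027284-26027533, minus strand): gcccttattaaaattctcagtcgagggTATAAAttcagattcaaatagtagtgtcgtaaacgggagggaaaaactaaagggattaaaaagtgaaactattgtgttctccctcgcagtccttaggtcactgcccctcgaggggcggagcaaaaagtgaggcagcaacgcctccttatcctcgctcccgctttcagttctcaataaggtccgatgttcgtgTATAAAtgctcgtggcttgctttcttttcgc
RefSeq windows of 300 bases (250 before to 50 after the start) were found for 37 of 41 members. The octamer occurred in 7 of 9 H2A and 10 of 13 H2B windows and in none of the 15 windows of H1, H3 and H4, against 1.77% of all 34943 promoters. CCAAT occurred in all 31 windows of H1, H2A, H2B and H3 and in 1 of 6 H4 windows, against 34.6% of all promoters, and TATAAA in 30 of 37, against 11.6%. The H1 box occurred in both H1 windows and in 1 other member's, HIST2H2AC, against 5.66% of all promoters. In rows below the filter, CCAAT was found in 24 of 29 windows, TATAAA in 14 and the octamer in 9. Head-to-head genes share bases, so that these counts are not independent: in 7 pairs, an H2A and an H2B member start 194 to 248 bases apart on opposite strands, and their windows overlap by 253 to 293 bases. The sequence of HIST1H2BM above therefore runs up to the start of HIST1H2AJ.

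The members were expressed far above the typical gene. Their median FPKM, as the mean over 16 libraries, was 300 against 21.3 over all 12604 genes tested, 32 members exceeded 100, and the 10 highest members held 57.6% of the members' summed FPKM. In H2B the highest were HIST1H2BK (1284), HIST1H2BC (1213) and HIST2H2BF (1128). In H3 they were HIST1H3C (1207), HIST1H3B (1096) and HIST1H3H (309.8), and in H2A HIST1H2AC (821), HIST1H2AM (804) and HIST1H2AG (795). The H1 members were HIST1H1C (1056) and HIST1H1E (723), and the highest H4 genes were HIST1H4B (519.5), HIST1H4H (472) and HIST1H4C (299.9). The lowest members, by the 4th highest FPKM that the filter uses, were HIST3H3 (2.46), HIST1H4I (2.97) and HIST1H2BA (3.20), which rest on 15 to 75 reads per library. Just outside were HIST1H1A (0.694), HIST1H1T (0.553) and HIST1H2AA (0.482). HIST3H3, HIST1H2BA, HIST1H1T and HIST1H2AA are known as histone genes of the testis.

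Summed over the members of each family, H2B mRNA was most abundant per length, followed by H2A and H3, and the group means of H4 and H1 were lowest. Rows below the filter are not in these sums: 4 of 6 in H1, 7 of 17 in H2A, 5 of 18 in H2B, 7 of 15 in H3 and 7 of 15 in H4. Whether their low values are failed estimates was not tested, so the order holds for the members alone. The sum for H2B was 6632 ± 446 (SD, n = 4) for ancestral cells on soft ECM, 7259 ± 195 in soft-selected cells, 7032 ± 494 in ancestral cells on stiff ECM and 7429.6 ± 476 in stiff-selected cells. The sum for H2A was 4378 ± 594, 4277 ± 227, 4625 ± 180.4 and 4488 ± 264 in the same order. H3 stood at 3078 ± 443, 2930.3 ± 97.0, 3342 ± 148 and 3221 ± 209. H4 stood at 1639 ± 356, 1424 ± 194, 1718 ± 174 and 1684 ± 178. In these 4 core families the selected and ancestral libraries overlapped on both ECM, and so did the sum over all members, which was 17592 ± 1903, 17439 ± 486, 18847 ± 689 and 18394 ± 1209. The H3 sums of soft-selected and stiff-selected cells did not overlap, by a narrow margin (2830.2 to 3055 against 3062 to 3508). Of all genes tested, 17% did not overlap between these groups, and 0 of the 8 H3 members were called between them. The genes of the HIST1 cluster held most of the sum, at 14514 ± 1736, 14232 ± 484, 15559.6 ± 660.5 and 15166 ± 1050.0, and those of HIST2 stood at 2939.8 ± 192, 3071 ± 136, 3175 ± 187 and 3059.6 ± 183. No test was run on these sums, and several directions were not stable: with the median FPKM of members in place of the sum, the sign of the difference between selected and ancestral cells turned for H2B and H4 on both ECM and for H3 and HIST2 on soft ECM. In a bulk sample, a smaller share of cells in S phase and less histone mRNA per such cell cannot be told apart.

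Both linker histone genes, HIST1H1C and HIST1H1E, were called lower in stiff-selected cells and neither was called in soft-selected cells (tests below). Their untested sum was 2079.6, 1751, 1869 and 1761 in the ancestral libraries on soft ECM and 1491, 1517, 1454 and 1737 in the soft-selected ones. On stiff ECM it was 2281, 2299.6, 2266 and 1674 in ancestral and 1666, 1651, 1364 and 1599 in stiff-selected libraries. The 4 selected libraries lay below the 4 ancestral ones on either ECM, on stiff ECM by a margin of 1666 to 1674. Of all genes tested, 45.6% on soft and 36.8% on stiff ECM did not overlap between selected and ancestral libraries in this way. Relative to the summed core histone members, the H1 members stood at 11.4, 12.4, 12.3 and 11.5 percent in ancestral and 9.09, 9.83, 9.30 and 10.8 percent in soft-selected libraries, which did not overlap. On stiff ECM the share was 14.4, 13.2, 13.6 and 9.90 percent in ancestral and 9.06, 9.79, 8.52 and 9.98 percent in stiff-selected libraries, where ancestral replicate 4 lay among the selected libraries. The linker histone gene H1F0, outside the clusters, stood at 294 ± 39.0 in soft-selected against 269 ± 25.1 in ancestral cells (log2 change 0.13 ± 0.10 SE, adjusted p of 0.31 by limma) and at 228 ± 16.9 against 249 ± 33.2 on stiff ECM (log2 change -0.12 ± 0.10 SE, adjusted p of 0.36 by limma). HIST1H1E stood at 65.4% to 71.1% of HIST1H1C in the 4 group means.

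**Figure D2:**
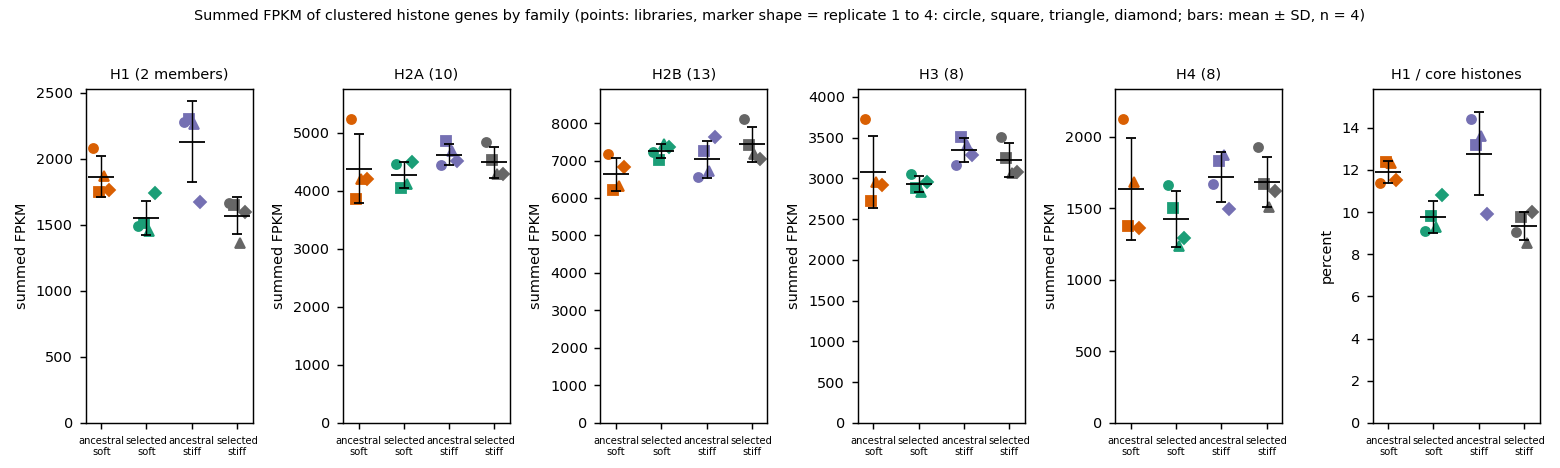
Summed FPKM of the members of each family (y axes, from 0) and H1 as a percent of the core histones (right), with 1 point per library by group, and bars for mean ± SD of 4 libraries. The H1 points of the selected groups lie at 1364 to 1737 and those of the ancestral groups at 1674 to 2300, while the core families overlap between selected and ancestral cells.

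Selection on soft ECM was examined by comparing soft-selected with ancestral cells there. In soft-selected cells 4 members were higher and 1 was lower (5 of 41, 12.2%), at a Benjamini-Hochberg adjusted p under 0.01 in limma. In this comparison 36.9% of all 12604 genes tested were called, 21.5% higher and 15.4% lower. At an adjusted p under 0.05 the count was 12 of 41 members (51.5% of all genes), and at an unadjusted p under 0.05 it was 15 (57.4%). The calls were 7 higher and 1 lower as TPM or with quantile normalization and 8 higher and 1 lower with the trend with gene length removed. With median scaling they were 2 higher and 1 lower, and with voom on recovered reads, scaled by the median of ratios, 2 higher and 2 lower. Under these settings 35.2% to 38.3% of all genes were called. The median log2 fold change of the members was 0.0043, against 0.040 over all genes tested. HIST1H2BM, an H2B gene, had an FPKM of 44.2, 51.1, 44.4 and 56.0 in ancestral and 76.0, 83.5, 98.7 and 98.3 in soft-selected libraries (log2 change 0.85 ± 0.13 SE, adjusted p of 5.0e-05 by limma). The groups did not overlap, and this call held with each library left out and under all 14 other settings tried. HIST1H4B, the highest H4 gene, had 831, 489, 617 and 502 in ancestral and 475, 430.0, 374 and 291 in soft-selected libraries (log2 change -0.62 ± 0.16 SE, adjusted p of 0.0031 by limma). The groups did not overlap, but its call was lost without ancestral replicate 1, the library in which it was highest, and without soft-selected replicate 4, the lowest (adjusted p at most 0.015 over all omissions). HIST1H2AM had 741, 659.9, 629 and 746 against 921, 827, 1068 and 917 (log2 change 0.42 ± 0.12 SE, adjusted p of 0.0084 by limma), and HIST2H2BF had 995, 963, 909 and 1060.4 against 1132, 1205, 1209 and 1268 (log2 change 0.29 ± 0.084 SE, adjusted p of 0.0073 by limma). In both, every soft-selected library lay above every ancestral one, but the calls were close to the threshold and were lost in 10 and 8 of 17 omissions (each library in turn and 1 pair of libraries), with an adjusted p of at most 0.034 and 0.030. HIST1H2AM also missed the threshold with the replicate number as a block (adjusted p of 0.011 by limma), and both did under median scaling and under voom with the median of ratios. HIST1H4I, at 15 to 51 reads per library, had 1.51, 1.21, 1.55 and 1.98 against 2.27, 3.69, 3.83 and 2.97 (log2 change 0.70 ± 0.18 SE, adjusted p of 0.0043 by limma) with no overlap, and lost its call in 6 of 17 omissions. The H1 genes were not called: HIST1H1E stood at 638 ± 53.5 against 775 ± 65.9 (log2 change -0.28 ± 0.092 SE, adjusted p of 0.017 by limma) and HIST1H1C at 912 ± 99.7 against 1090.1 ± 89.4 (log2 change -0.26 ± 0.11 SE, adjusted p of 0.065 by limma). In 7 of 41 members (against 45.6% of all genes) the groups did not overlap.

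Selection on stiff ECM was examined in the same way. In stiff-selected cells 2 members were higher than in ancestral cells and 2 were lower (4 of 41, 9.76%), where 29.1% of all genes were called, 18.4% higher and 10.8% lower. At an adjusted p under 0.05 the count was 9 (44.5% of all genes), and at an unadjusted p under 0.05 it was 13 (51.7%). The balance of the calls moved with the scaling, to 4 higher and 1 lower as TPM or with quantile normalization, 1 higher and 2 lower with median scaling and 1 higher and 3 lower with voom and the median of ratios. Under these settings 26.6% to 30.9% of all genes were called. The members' median log2 fold change was 0.076, against 0.050 over all genes. Both H1 genes fell. HIST1H1E had 905, 911, 906 and 709 in ancestral and 692, 618, 555 and 615 in stiff-selected libraries (log2 change -0.46 ± 0.092 SE, adjusted p of 6.4e-04 by limma), with no overlap, and stayed called under all 14 other settings and all omissions of libraries. HIST1H1C had 1376, 1388, 1359.9 and 965 against 975, 1033, 809 and 985 (log2 change -0.41 ± 0.11 SE, adjusted p of 0.0077 by limma). In HIST1H1C, ancestral replicate 4 lay among the selected libraries, and the call was lost in 8 of 17 omissions (adjusted p at most 0.035) and with the replicate number as a block. HIST4H4, the H4 gene outside the large clusters, rose from 115, 119, 108 and 106 to 159, 176, 141 and 189 (log2 change 0.56 ± 0.12 SE, adjusted p of 1.0e-03 by limma), with no overlap, and kept its call in every setting and omission. HIST1H2BM had 47.2, 57.6, 43.0 and 76.4 against 77.0, 77.3, 78.9 and 72.5 (log2 change 0.47 ± 0.13 SE, adjusted p of 0.0079 by limma). Here too ancestral replicate 4 reached the selected libraries, and the call was lost in 8 of 17 omissions (adjusted p at most 0.034). Without ancestral replicate 4 on stiff ECM, 9 members and 32.3% of all genes were called. The groups did not overlap in 3 of 41 members (against 36.8% of all genes).

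**Figure D3:**
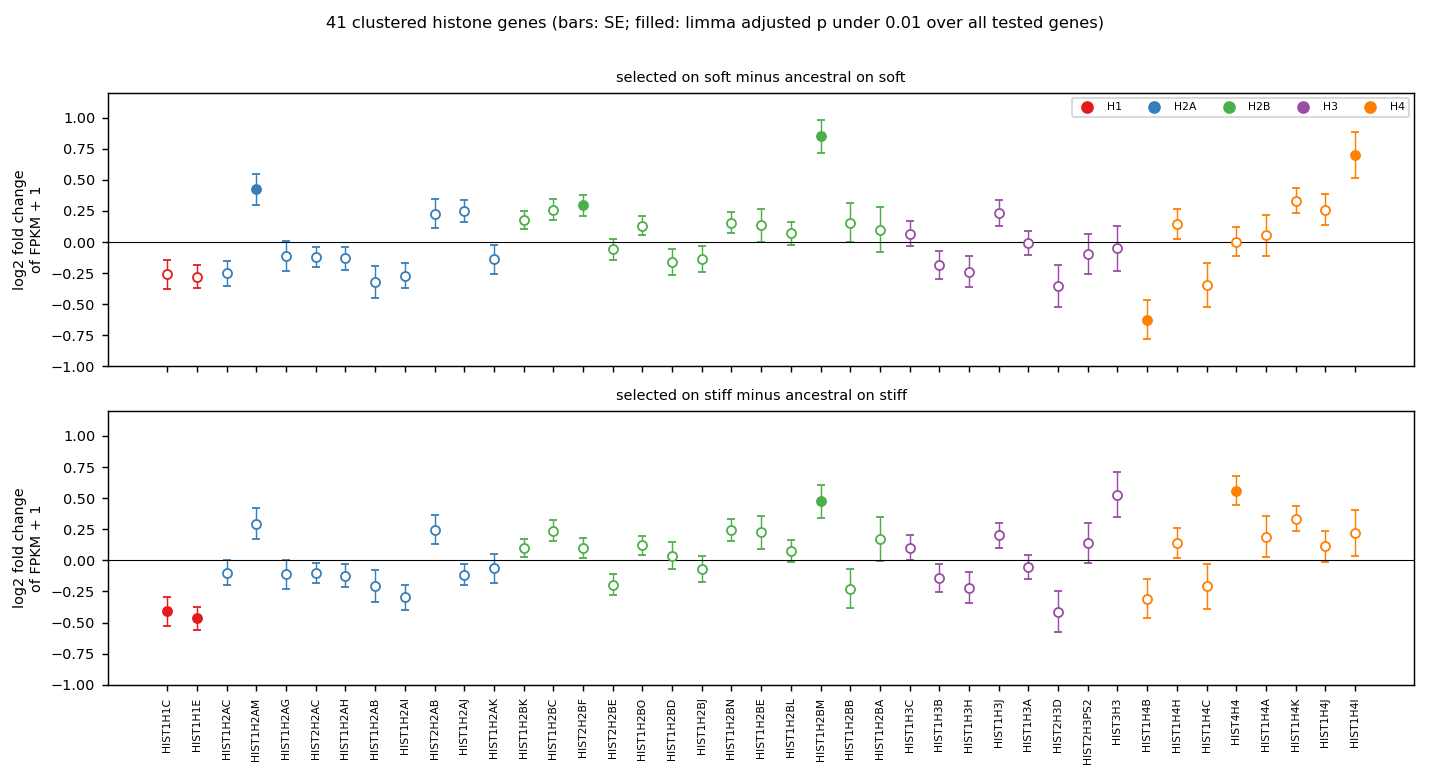
Log2 fold change of FPKM + 1 with its SE (y axis) for the 41 members, ordered by family and mean level (x axis), in soft-selected against ancestral cells on soft ECM (top) and stiff-selected against ancestral cells on stiff ECM (bottom), with filled points where the limma adjusted p was under 0.01. HIST1H2BM is filled in both panels, at 0.85 and 0.47, and both H1 genes are filled in the lower panel.

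Few members differed between soft and stiff ECM. In soft-selected against stiff-selected cells, which differ in both selection and ECM, limma called 0 of 41 members, against 6.43% of all genes (3.85% higher and 2.59% lower). That share was 4.21% without soft-selected replicate 1, 2.9% without soft-selected replicate 3 and 2.64%, 2.75% and 3.86% without stiff-selected replicate 1, 2 and 3, and 1% in a fit of these groups alone. At an adjusted p under 0.05 it called 1 member (17.9% of all genes), and at an unadjusted p under 0.05 it called 8 (33.3%). The lowest adjusted p was that of HIST1H2BA (1.83 ± 0.738 against 3.52 ± 0.901, log2 change -0.69 ± 0.18 SE, adjusted p of 0.014 by limma), at 16 to 75 reads per library. In ancestral cells, whose libraries are also the controls of the comparisons above, limma called 1 of 41 members between the ECM, against 11.4% of all genes (7.54% higher and 3.87% lower on soft ECM). That share rested on single libraries, at 4.88% to 6.83% without any 1 of the 4 on soft ECM, 4.55% without replicate 2 and 5.36% without replicate 3 on stiff ECM. It called 2 at an adjusted p under 0.05 (25.3% of all genes) and 4 at an unadjusted p under 0.05 (38.2%). The member called was HIST3H3, higher on soft ECM, with 2.07, 2.28, 2.41 and 2.60 on soft and 0.826, 0.704, 1.54 and 0.789 on stiff ECM (log2 change 0.78 ± 0.18 SE, adjusted p of 0.0050 by limma), a testis histone gene at 15 to 52 reads per library. Its call was lost on leaving out 7 of the 8 ancestral libraries in turn. The members' median log2 fold change was -0.072 between the selected populations and -0.082 between the ancestral ones, against 0.019 and 0.032 over all genes. Groups did not overlap in 2 of 41 members in either comparison (against 17% and 31.4% of all genes). An interaction term then compared the effect of selection between the ECM. Limma called 0 of 41 members (3 at an unadjusted p under 0.05) and 0% of all genes (0.325% at an adjusted and 12.9% at an unadjusted p under 0.05), so that the members called on 1 ECM alone are not shown to differ between the ECM. HIST4H4 came nearest, with a difference of -0.55 ± 0.17 SE in log2 change (adjusted p of 0.17 by limma).

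Levels and log2 fold changes of the 7 pairs of head-to-head neighbours are given side by side. HIST1H2AJ and HIST1H2BM start 245 bases apart. HIST1H2AJ shares most windows with HIST1H2AI, so that its own value is less certain. On soft ECM, HIST1H2AJ had 199.7, 162, 158 and 176 in ancestral and 195, 201, 204 and 226 in soft-selected libraries (log2 change 0.25 ± 0.085 SE, adjusted p of 0.020 by limma), beside the larger difference of HIST1H2BM. On stiff ECM the log2 fold changes were -0.12 for HIST1H2AJ and 0.47 for HIST1H2BM. HIST1H2AM and HIST1H2BO, 240 bases apart, had nearly the same mean FPKM (804 and 801) and log2 fold changes of 0.42 and 0.13 on soft ECM. In HIST1H2AC and HIST1H2BC (821 and 1213) they were -0.25 and 0.26, of opposite sign, neither of them called. HIST1H2AG (795) and HIST1H2BJ (339) stood at -0.11 and -0.13. HIST2H2AC (595) and HIST2H2BE (995) stood at -0.12 and -0.057. HIST1H2AI (235) and HIST1H2BL (118) stood at -0.27 and 0.070, and HIST1H2AK (105) and HIST1H2BN (325) at -0.14 and 0.16. The log2 fold change of the H2B partner was the more positive on soft ECM in 5 of the 7 pairs. The families as a whole leaned the same way there, with positive values in 10 of 13 H2B and 3 of 10 H2A members. On stiff ECM the H2B partner was the less positive in HIST1H2BO (0.12 against 0.30) and HIST2H2BE (-0.19 against -0.099), and the more positive in the other pairs. Differences between partners were not tested.

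**Figure D4:**
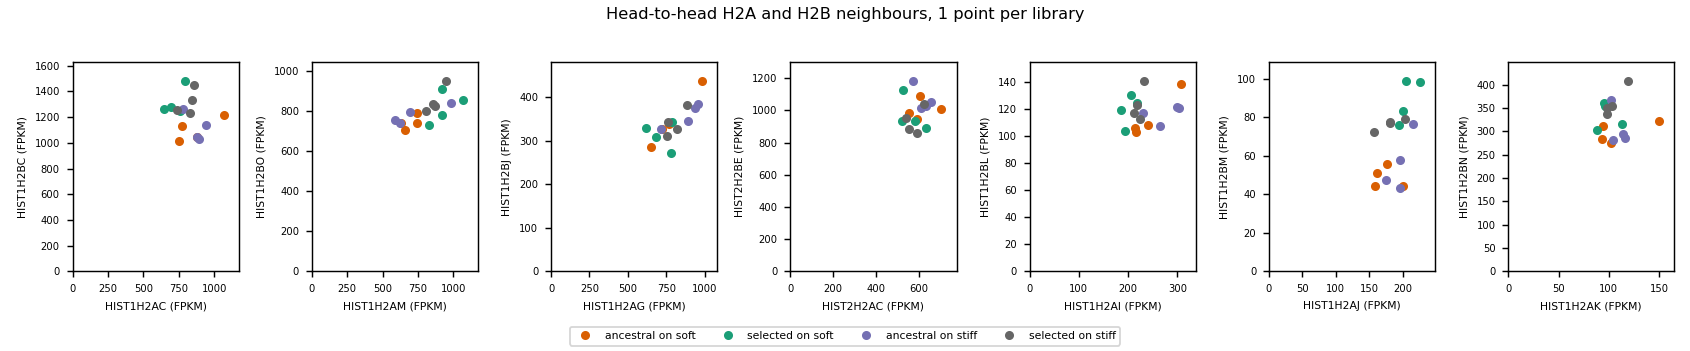
FPKM of the H2A gene (x axes) and of its head-to-head H2B neighbour (y axes, both from 0) in each of the 16 libraries, coloured by group, for 7 pairs. HIST1H2BM separates soft-selected libraries (76.0 to 98.7) from ancestral ones on soft ECM (44.2 to 56.0) while HIST1H2AJ overlaps between them.

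Members were high or low together in some libraries of a group. Each library was set against the mean of the other 3 of its group on the log2(FPKM + 1) scale. In ancestral replicate 1 on soft ECM, 37 of 41 members lay above the other libraries, by a median of 0.37, while the median over all genes tested was 0.0038. In ancestral replicate 2 on soft ECM, 39 members lay below, by a median of -0.21. In stiff-selected replicate 1, 37 members lay above, by 0.19, and in ancestral replicate 2 on stiff ECM 35 lay above, by 0.11. The medians of 52 genes of DNA replication and S phase in these 4 libraries were 0.077, -0.085, 0.056 and 0.041, of the same sign as the histone members and smaller. The same held in ancestral replicate 4 on soft ECM, soft-selected replicates 2 and 4 and stiff-selected replicate 4. The signs differed in ancestral replicate 3 on soft ECM, soft-selected replicates 1 and 3, ancestral replicate 4 on stiff ECM and stiff-selected replicate 3. The last had a median of -0.083 over the members and 0.022 over the replication genes. In ancestral replicates 1 and 3 on stiff ECM and stiff-selected replicate 2 the signs were the same, but the replication genes stood further from the other libraries (-0.091 and -0.13 in ancestral replicate 1). The part of the replication genes in the spread of the members was not tested. Ancestral replicate 4 on stiff ECM departed in another way: HIST1H1C lay -0.51 and HIST1H1E -0.36 from the other libraries, HIST1H2AM (981) and HIST1H2BM (76.4) lay above them, and the members as a whole stood at -0.13. Without ancestral replicate 1 on soft ECM and ancestral replicate 4 on stiff ECM, 8 members were called on soft ECM (32.5% of all genes) and 12 on stiff ECM (31% of all genes).

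**Figure D5:**
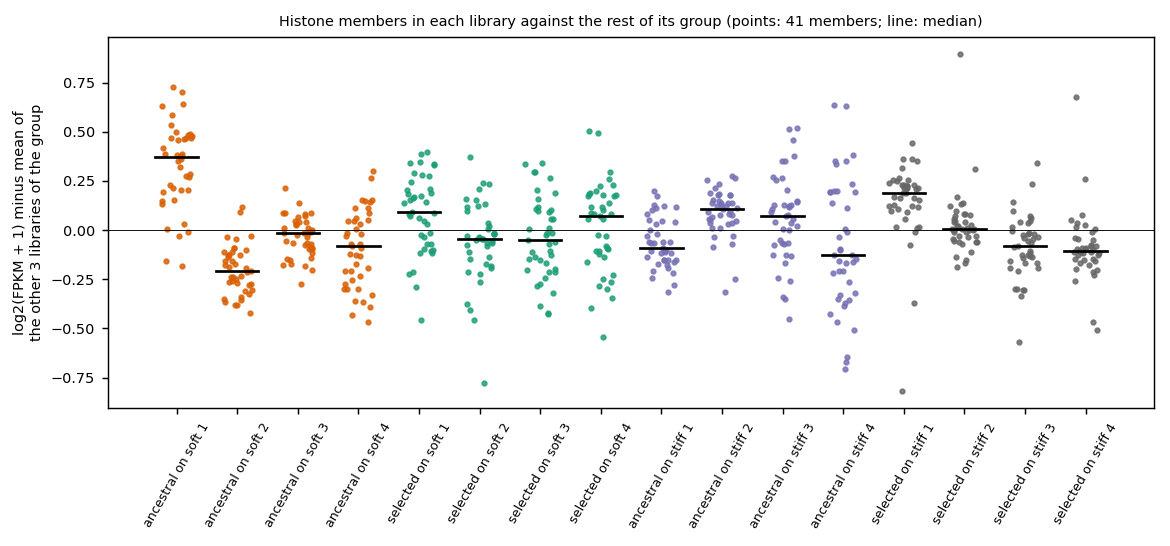
Difference of log2(FPKM + 1) from the mean of the other 3 libraries of the group (y axis) for each of the 41 members (points) in each library (x axis), with the median as a line. The points of ancestral replicate 1 on soft ECM sit mostly above 0, with a median of 0.37, and those of ancestral replicate 2 on soft ECM mostly below.

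Genes that transcribe and process histone mRNA were called in both directions. Of 24 tested genes of this list, 9 were higher and 1 was lower on soft ECM (median log2 fold change 0.12), where 36.9% of all genes were called, and 4 were higher and 2 lower on stiff ECM (0.062), where 29.1% were. SLBP, which binds the stem-loop, was the 1 lower gene on soft ECM, with 124, 119, 125 and 118 in ancestral and 105, 105, 113 and 111 in soft-selected libraries (log2 change -0.16 ± 0.043 SE, adjusted p of 0.0048 by limma). On stiff ECM it had 140.5, 137, 139.8 and 135 in ancestral and 112, 118, 114 and 111 in stiff-selected libraries (log2 change -0.28 ± 0.043 SE, adjusted p of 8.0e-05 by limma). The groups did not overlap on either ECM. NPAT, a coactivator of histone gene transcription, stood at 35.3 ± 4.01 against 30.9 ± 1.18 on soft ECM (log2 change 0.18 ± 0.074 SE, adjusted p of 0.047 by limma). CPSF2 and SYMPK, parts of the cleavage complex that cuts histone pre-mRNA, were higher on soft ECM by log2 fold changes of 0.42 and 0.36, and on stiff ECM by 0.22 and 0.48. ERI1, an exonuclease that trims histone mRNA ends, was lower on soft than on stiff ECM in both selected (-0.45) and ancestral cells (-0.38).

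Variant histone genes, most of which make polyadenylated mRNA outside S phase as well, had negative medians in the selected cells. Of 11 tested, 6 were lower and 1 was higher in soft-selected cells on soft ECM (median log2 fold change -0.30), and 5 were lower and 1 higher in stiff-selected cells on stiff ECM (-0.20), beside the same 36.9% and 29.1% of all genes. No test compared them with the members. The linker histone gene H1FX stood at 49.0 ± 5.83 against 88.9 ± 9.89 on soft ECM (log2 change -0.85 ± 0.13 SE, adjusted p of 3.7e-05 by limma) and at 48.5 ± 2.96 against 85.6 ± 18.1 on stiff ECM (log2 change -0.78 ± 0.13 SE, adjusted p of 1.2e-04 by limma). H2AFY (macroH2A), H2AFV and H3F3A (H3.3) were also lower, by log2 fold changes of -0.30, -0.39 and -0.39 on soft ECM and -0.22, -0.42 and -0.32 on stiff ECM. H2AFY2 was the gene that was higher (0.72 and 0.67). Of 29 histone chaperone genes, 8 were higher and 3 lower on soft ECM (36.9% of all genes called) and 7 higher and 4 lower on stiff ECM (29.1%), with RBBP7 lower (-0.53 and -0.47) and SUPT16H higher (0.47 and 0.39). Of the 6 members known to be made as polyadenylated mRNA too, HIST1H1C on stiff ECM was the 1 called.

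Genes of S phase and mitosis were called lower on soft than on stiff ECM in ancestral cells. In ancestral cells on soft against stiff ECM, 21 of 52 genes of DNA replication and S phase were lower and 0 were higher (median log2 fold change -0.23), as were 16 of 30 genes of G2 and mitosis (-0.27), where 3.87% of all genes were lower. These list counts come from the fit of all libraries. Over all genes, 488 were lower in that fit, and 166 to 648 with each library left out in turn. Of the histone members in this comparison, 33 of 41 had a negative log2 fold change and 0 were called lower, and no test compared the lists with the members. RRM2, a subunit of ribonucleotide reductase, stood at 84.4 ± 2.49 against 117 ± 10.1 (log2 change -0.46 ± 0.067 SE, adjusted p of 4.0e-04 by limma), and CDC6, which licenses replication origins, at 46.6 ± 1.15 against 60.9 ± 5.69 (log2 change -0.37 ± 0.059 SE, adjusted p of 5.7e-04 by limma). In the same comparison 10 of 29 chaperone genes were lower and 0 were higher. In soft-selected against ancestral cells on soft ECM, 12 of the 52 genes were higher and 4 lower, and 11 of the 30 were higher and 1 was lower. Of all genes, 21.5% were higher and 15.4% lower there. In stiff-selected against ancestral cells on stiff ECM, 7 of 52 were higher and 7 lower, and 3 of 30 were higher and 3 lower. Of all genes, 18.4% were higher and 10.8% lower there. PCNA, the sliding clamp of DNA polymerase, stood at 158 ± 10.6 against 219 ± 11.5 in this comparison (log2 change -0.47 ± 0.062 SE, adjusted p of 1.4e-05 by limma). Between soft-selected and stiff-selected cells 4 of 52 and 3 of 30 were lower and 0 were higher, where 2.59% of all genes were lower and 3.85% higher.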

How the data were processed

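The authors deposited 1 table of FPKM for 19468 genes in 16 libraries of total RNA depleted of ribosomal RNA, aligned to hg19 with STAR per the submitters' processing notes. The counting tool, gene models and versions are not stated in the sources at hand. Sample columns left unused numbered 0. FPKM were whole multiples of 1 read for 100% of genes with reads (tolerance 0.001), which gave reads per library (34284794 to 55473023) and coding lengths.

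Values were taken as log2(FPKM + 1), a scale that understates changes of low genes, and 12604 genes reaching an FPKM of 1 in 4 libraries were tested by limma 3.58.1 (R 4.3.3) with a trended prior, fitting 1 mean per group over all libraries. The threshold was a Benjamini-Hochberg adjusted p under 0.01 across these genes. Steps were tested on simulated data. Sequences came from RefSeq promoters (GRCh38.p14) and GENCODE 44.

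Alternatives were a pseudocount of 0.1, other filters (none, mean), scaling to TPM, to the median or by quantiles, fitting only the groups compared, no trend, array weights, a replicate block, an adjusted p under 0.05, voom on recovered reads, removal of the trend with length, and leaving out libraries. Leaving out ancestral replicate 1 on soft and 4 on stiff ECM together was chosen after seeing the data.

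Members and lists were chosen with earlier results of these data known. Named genes are the 3 highest members per family, called members, members with a library far from its group, rows next to the filter, SLBP and NPAT, and from each list the called genes with the smallest p; head-to-head neighbours and other rows in the gene order were named after their values were seen.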

Additional observations from a re-analysis of the deposited data

Results flagged for a closer look

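In 12 of 164 sets of 4 libraries (41 members in 4 groups) and in 1 family sum, 1 library lay far from the other 3 by Dixon's ratio, where chance gives about 1 in 20. The largest share fell in ancestral replicate 4 on stiff ECM. There HIST1H1C stood at 965 FPKM (the other libraries at 1360 to 1388), HIST1H1E at 709 (905 to 911), HIST1H2BN at 366 (282 to 294), HIST1H4J at 30.1 (38.4 to 39.1) and the H1 sum at 1673.7 (2266 to 2300). Ancestral replicate 1 on soft ECM held HIST1H2AK at 150 (93.3 to 103) and HIST1H2BL at 139 (103 to 108). Soft-selected replicate 4 held HIST1H2BC at 1478.5 (1245 to 1276) and HIST1H2BK at 1374.5 (1296 to 1308). Stiff-selected replicate 1 held HIST1H4B at 603 (439 to 452) and HIST1H4J at 47.7 (36.5 to 37.7). The others were HIST2H3PS2 in soft-selected replicate 2, at 5.60 (7.66 to 7.93), and HIST3H3 in ancestral replicate 3 on stiff ECM, at 1.54 (0.704 to 0.826). HIST1H4J shares its whole coding sequence with HIST1H4K, and HIST3H3 rests on 15 to 52 reads per library.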

How the results depend on the processing

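None of the 10 called pairs of member and comparison changed direction under any alternative, and HIST1H2BM on soft ECM, HIST1H1E on stiff ECM and HIST4H4 on stiff ECM stayed past the threshold in all 14 settings and 17 omissions, while the other 7 lost their call in at least 1 of each. The counts moved more, and the cause was not tested. On soft ECM, against 5 called members, TPM, array weights and quantile normalization gave 8 (38.3%, 44.6% and 37.1% of all genes). Median scaling gave 3 (36.3%), no filter on low values 2 (27.8%) and removal of the trend with gene length 9 (35.2%). An adjusted p under 0.05 gave 12 (51.5%), and omission of ancestral replicate 1 on soft and 4 on stiff ECM 8 (32.5%). On stiff ECM, against 4, array weights gave 15 (52.8% of all genes), no filter 2 (20.7%), an adjusted p under 0.05 9 (44.5%) and the same omission 12 (31%). For soft-selected against stiff-selected cells, against 0, array weights, quantile normalization and an adjusted p under 0.05 gave 1 each (13.1%, 6.69% and 17.9%). In ancestral cells, against 1, array weights gave 15 (48.3% of all genes), no filter 0 (6.13%), a fit of only the groups compared 2 (16.1%), an adjusted p under 0.05 2 (25.3%) and the same omission 3 (8.63%). Among the other lists, median scaling gave 2 in place of 4 higher genes of histone mRNA processing and 3 in place of 7 higher replication genes on stiff ECM, and 8 in place of 4 lower replication genes between selected populations.

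With each library left out in turn, 2 to 7 members were called on soft ECM, 2 to 9 on stiff ECM, 0 to 1 between selected populations, 0 to 1 between ancestral cells and 0 for the difference of effects. The share of all genes called moved too. It was 30.3% to 39% on soft ECM, 21.5% to 32.3% on stiff ECM, 2.64% to 9% between selected populations and 4.55% to 14.6% between ancestral cells. On soft ECM the count of members fell to 2 without ancestral replicate 2 or 3 (31.5% and 30.3% of all genes) or soft-selected replicate 3 or 4 (31.1% and 34.2%), and to 3 without stiff-selected replicate 2 (35.3%). On stiff ECM it was 2 without ancestral replicate 2 on soft ECM (27% of all genes), ancestral replicate 1 on stiff ECM (21.7%) or stiff-selected replicate 3 (21.5%), and 9 without ancestral replicate 4 on stiff ECM (32.3%). It was 1 between selected populations without soft-selected replicate 4 or stiff-selected replicate 2 or 4 (6.36%, 2.75% and 7.77%). It was 0 in ancestral cells without any 1 of their libraries but replicate 3 on stiff ECM (4.55% to 12.3%).

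Nothing in the sources tells whether the replicate numbers pair the libraries, and the overlapping ranges of correlation below do not settle it. Deviations of same-numbered libraries correlated at -0.19 to 0.31, against -0.39 to 0.30 for other numbers. A replicate block gave 5, 3, 0, 1 and 0 called members on soft ECM, on stiff ECM, between selected, between ancestral and for the difference of effects, and under it HIST1H2AM on soft ECM and HIST1H1C on stiff ECM lost their calls. With the block 37.1%, 29%, 5.82%, 11.1% and 0% of all genes were called, in the same order.

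When the sum over members was replaced by their median FPKM, the log2 ratio of group means was -0.20 over all members between soft-selected and stiff-selected cells. In soft-selected over ancestral cells it was -0.021 for H2B (0.13 for the sum), 0.089 for H3 (-0.071), -0.21 for HIST1 (-0.028) and -0.040 for HIST2 (0.063), so that H2B, H3 and HIST2 turned, as did H4 (0.015 in place of -0.20) and, on stiff ECM, H2B (-0.014 in place of 0.079). In stiff-selected over ancestral cells it was -0.17 for H2A, 0.41 for H4 (-0.029 for the sum, so that it turned) and -0.14 for HIST1, and for H3 between selected populations -0.051. Depth limited HIST3H3, HIST1H4I and HIST1H2BA, whose values rest on 15 to 75 reads per library; a recovered read may stand for a read pair, and counting error is the only error that reads describe.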
